A study of Homo sapiens with 4 samples.

Results

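ZIC1, ZIC2, ZIC5, PAX3, PAX7, SOX2, SOX9, SOX11 and ZNF423 encode transcription factors of the early nervous system and its border, and their transcripts were followed in an Ewing sarcoma (EWS) cell line that had been given exosomes (EXOs). The 9 genes were chosen by their families and selected on the rise of ZIC2, ZNF423, PAX3 and PAX7 in these same arrays, so the changes of these 9 genes, and which of them passed the study's thresholds, are given below as a description of the choice and not as a test of it. All 9 had exactly 1 transcript cluster (a set of probes for 1 transcribed unit) with a gene symbol of its own, among 22085 gene symbols in all. The arrays (GeneChip Human Transcriptome Array 2.0) held total RNA of TC-71, an established EWS cell line. In the exposed group (replicates C and D), TC-71 cells were kept for 24 h without serum with EXOs purified from CD99-silenced TC-71 cells (CD99neg EXOs). The dose was 10 µg for every 5000 cells. The other group was TC-71 without EXOs (untreated, replicates A and B), and the medium of this group during the exposure is not given. CD99 is a surface protein by which EWS is recognised. There were 2 arrays per group, called biological replicates in the labels, from 1 cell line. No group received EXOs of cells with CD99, so the arrival of EXOs, the loss of CD99 in their donor cells and a difference of serum cannot be told apart. RNA carried by the EXOs and RNA made by the cells cannot be told apart either.

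The neural crest is an embryonic cell population that arises at the border of the neural plate, leaves it and gives rise to peripheral neurons, glia, melanocytes and part of the facial skeleton. At the border, WNT, BMP and FGF signals turn on ZIC, PAX3 and PAX7 genes, which in turn permit later crest genes such as FOXD3, SNAI2, SOX9 and SOX10. SOX2 keeps neural progenitors undifferentiated, and SOX11 acts in young neurons. ZNF423 is a protein with many zinc fingers that binds SMAD proteins in the BMP response and EBF factors in neural and fat precursors. EWS is often placed near the neural crest or mesenchymal stem cells, and PAX7 and SOX2 are both known to be expressed in it.

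The promoters of the 4 genes whose rise led to the choice are shown first, as context for the values. Of the 9 genes, 7 had a start site in the RefSeq promoter table (GRCh38.p14), and SOX9 and SOX11 were the others. Each sequence holds the 250 bases before a start site, 5′ to 3′ on the gene's strand. ZIC2 lies at chr13:99981534-99981783 on the plus strand, PAX3 at chr2:222298999-222299248 on the minus strand and PAX7 at chr1:18630596-18630845 on the plus strand. ZNF423 has a pair of start sites on the minus strand, with windows at chr16:49857920-49858169 (outer) and chr16:49664325-49664574 (inner). Capitals mark a CCAAT box (CCAAT) or a GC box (GGGCGG), on either strand, where overlapping matches run together.
ZIC2: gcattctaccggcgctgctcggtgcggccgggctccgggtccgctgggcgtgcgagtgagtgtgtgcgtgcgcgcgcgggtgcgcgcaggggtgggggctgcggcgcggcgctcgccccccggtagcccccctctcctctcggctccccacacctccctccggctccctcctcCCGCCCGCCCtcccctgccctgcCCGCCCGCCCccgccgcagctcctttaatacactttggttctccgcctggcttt
PAX3: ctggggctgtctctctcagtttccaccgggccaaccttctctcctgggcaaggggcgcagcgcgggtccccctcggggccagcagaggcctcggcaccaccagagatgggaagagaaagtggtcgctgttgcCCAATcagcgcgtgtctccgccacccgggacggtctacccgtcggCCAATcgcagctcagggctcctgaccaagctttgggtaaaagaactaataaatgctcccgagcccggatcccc
PAX7: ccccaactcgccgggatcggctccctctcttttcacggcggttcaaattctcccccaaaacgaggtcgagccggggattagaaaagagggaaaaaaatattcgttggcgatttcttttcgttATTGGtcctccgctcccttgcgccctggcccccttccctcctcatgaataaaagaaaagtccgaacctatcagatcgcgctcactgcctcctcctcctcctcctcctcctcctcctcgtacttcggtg
ZNF423 outer: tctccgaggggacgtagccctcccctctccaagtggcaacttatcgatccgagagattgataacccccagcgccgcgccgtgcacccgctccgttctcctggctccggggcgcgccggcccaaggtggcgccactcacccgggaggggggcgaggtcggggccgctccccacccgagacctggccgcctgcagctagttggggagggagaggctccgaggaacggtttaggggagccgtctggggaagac
ZNF423 inner: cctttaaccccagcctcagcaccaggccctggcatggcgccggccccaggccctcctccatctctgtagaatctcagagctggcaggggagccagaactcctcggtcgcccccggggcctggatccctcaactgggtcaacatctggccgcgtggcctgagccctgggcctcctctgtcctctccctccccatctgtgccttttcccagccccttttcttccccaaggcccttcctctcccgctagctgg
The window of ZIC2 held 4 GC boxes, in overlapping pairs, and no CCAAT box. That of PAX3 held 2 CCAAT boxes and that of PAX7 held 1, with no GC box in either. Neither ZNF423 window held a match. A TATA box (TATAAA), an AP-1 site (TGANTCA) and a GGAA repeat (GGAAGGAA, the kind of repeat bound by EWS-FLI1) were also searched on both strands, and 0 matches were found in the windows of all 7 genes. Over 35116 windows of the same length, a CCAAT box was present in 32.0%, a GC box in 42.6%, a TATA box in 10.7%, an AP-1 site in 6.57% and a GGAA repeat in 3.06%. G and C made up 75.6% of the ZIC2 window, 64.0% of that of PAX3, 54.8% of that of PAX7, and 70.0% and 66.0% of the outer and inner ZNF423 windows, against a median of 58.0% over all windows. None of the motifs searched was found in the windows of all 4 genes.

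The arrays were alike in scale, and the cells carried EWS markers. The median log2 signal was 5.45 and 5.44 on the exposed arrays and 5.42 and 5.38 on the untreated arrays. The log2 differences between the 2 exposed arrays had an SD of 0.102 over all 67539 clusters, and those between the 2 untreated arrays an SD of 0.114. CD99 had log2 signals of 10.24 and 10.25 in exposed cells and 9.93 and 9.98 in untreated cells, which differ by 0.29 (limma adjusted p = 0.0231, standard error 0.04), below the fold of 1.5. Olfactory receptor genes, of which a sarcoma cell is not known to make use, gave a scale for weak signals: 444 such clusters had mean signals between 4.43 and 5.48 at their 5th and 95th percentiles. All 12 of 12 EWS markers lay above the 95th percentile on every array, but so did 7 of 12 measured markers of other cell types. The highest of those were APOA1, a liver apolipoprotein, at 6.48 and 6.40 in exposed and 6.42 and 6.40 in untreated cells, and SFTPC, a lung surfactant protein, at 6.24 and 6.13 in exposed and 6.21 and 6.13 in untreated cells. A signal up to about that of APOA1 is therefore no evidence of a transcript here. This limit is rough, since signals of different genes come from different probes and are not strictly comparable.

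In cells exposed to CD99neg EXOs, ZIC2, ZNF423, PAX7 and PAX3 were higher than in untreated cells and met both thresholds of the study, a change of 1.5-fold or more with a p, adjusted over all clusters by limma, no higher than 0.05. This is 4 of 9 genes higher and 0 lower, where 1.54% of all clusters were called higher and 1.04% lower, and nothing is read from that count, because the genes were picked for it. On either side of the fold of 1.5, the nearest of the 9 genes were PAX3, close to it at 1.54-fold, and SOX2, well below it at 1.29-fold. Both exposed arrays lay above both untreated arrays in 6 of the 9 genes, where 28.0% of all clusters did so. The 6 include the 4 genes whose rise led to the choice, so nothing is read from this count either. The exposed arrays lay below the untreated ones in 1 of the 9 genes and overlapped with them in 2. The shares of all clusters that did so are not given here. The median log2 fold change of the 9 genes was 0.37, and that of all genes with a named cluster was 0.00.

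**Figure D1:**
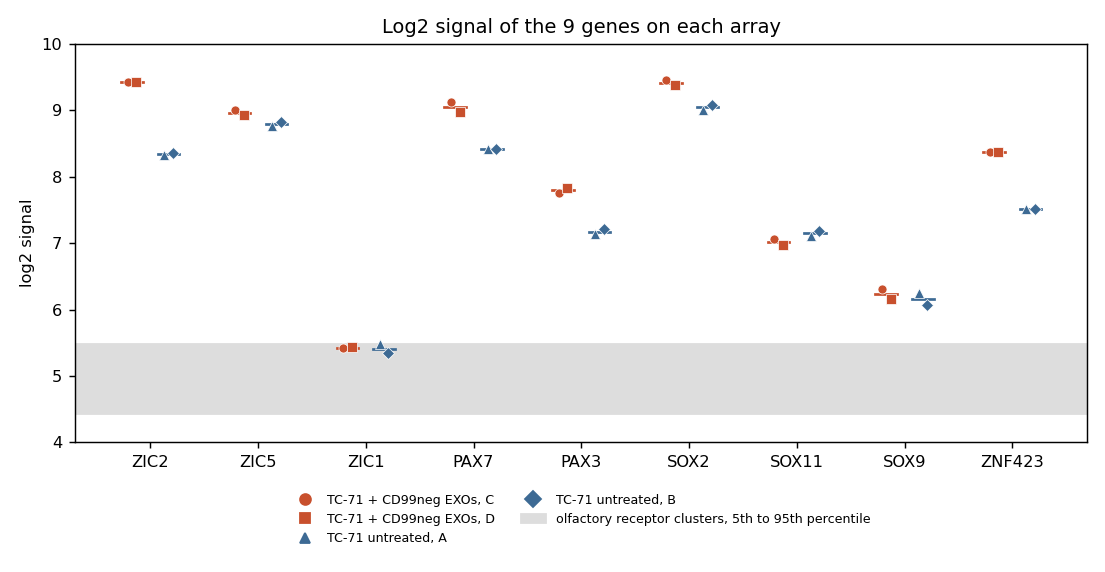
Log2 signal (y axis) of the 9 genes (x axis) on each array, exposed arrays in red at the left and untreated arrays in blue at the right of each gene, with a bar at the group mean (n = 2 arrays each) and a grey band for the 5th to 95th percentile of olfactory receptor clusters (4.43 to 5.48). ZIC2, ZNF423, PAX7 and PAX3 show the wide gaps between groups, and ZIC1 lies in the band.

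ZIC2, a zinc finger factor of the neural plate whose loss causes holoprosencephaly in humans, had the largest change of the 9. Its log2 signal was 9.43 and 9.43 in exposed cells and 8.33 and 8.36 in untreated cells. Neither group varied by more than 0.03, and the lowest exposed array lay 1.07 above the highest untreated one. The mean was 9.43 ± 0.00 in exposed cells and 8.34 ± 0.02 in untreated cells (SD, n = 2 arrays each). The log2 fold change was thus 1.08, or 2.12-fold. ZIC5 is the neighbour of ZIC2 on chromosome 13 and is transcribed away from it, on the opposite strand. Its log2 signal was 9.0 and 8.93 in exposed cells and 8.77 and 8.83 in untreated cells. The groups did not overlap, but the gap of 0.11 between them was not much wider than the 0.07 and 0.06 within exposed and untreated pairs. With a log2 fold change of 0.17, ZIC5 did not share the size of the ZIC2 rise. ZIC1, which acts with PAX3 to induce neural crest in frog embryos, had log2 signals of 5.42 and 5.43 in exposed cells and 5.48 and 5.34 in untreated cells. These values overlap, and the difference of 0.02 lies inside the untreated spread of 0.13. ZIC1 stayed within the signals of olfactory receptor clusters, so it was not detectable here.

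PAX3 and PAX7 are paralogues with a paired domain and a homeodomain, which mark the border of the neural plate and later the precursors of skeletal muscle. PAX7 had log2 signals of 9.13 and 8.97 in exposed cells and 8.42 and 8.42 in untreated cells. The exposed arrays differed from each other by 0.16, the untreated ones by less than 0.01, and the gap between the groups was 0.55. The mean of PAX7 was 9.05 ± 0.11 in exposed cells and 8.42 ± 0.00 in untreated cells (SD, n = 2 arrays each). The log2 fold change was thus 0.63, or 1.55-fold. PAX3 had 7.76 and 7.83 in exposed cells and 7.14 and 7.21 in untreated cells, again without overlap and with a gap of 0.55. Its mean was 7.79 ± 0.05 in exposed cells and 7.17 ± 0.04 in untreated cells, a log2 fold change of 0.62, or 1.54-fold. Both genes lay close to the fold of 1.5, and their calls changed with single arrays. Without exposed replicate C, PAX7 had a log2 fold change of 0.55 and was not called, and without untreated replicate A or B it had 0.63 each time and was not called because the adjusted p was above 0.05. PAX3 was not called without exposed replicate D or with each array centred on its median, at 0.58 each time. In every one of these settings the change stayed positive.

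ZNF423 had the second largest change and the narrowest spread. Its log2 signal was 8.38 and 8.38 in exposed cells and 7.51 and 7.51 in untreated cells. The arrays of a group differed by 0.01 or less, against a gap of 0.86 between the groups. The mean was 8.38 ± 0.01 in exposed cells and 7.51 ± 0.00 in untreated cells (SD, n = 2 arrays each). The log2 fold change was thus 0.87, or 1.83-fold. The calls of ZNF423 and ZIC2 held without each array in turn and with each scale between arrays that was tried, with log2 fold changes of 0.83 to 0.88 for ZNF423 and 1.04 to 1.11 for ZIC2. Both calls were lost in a test without limma's moderation of the variance, which called 0 clusters in all (10368 had an unadjusted p under 0.05).

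**Figure D2:**
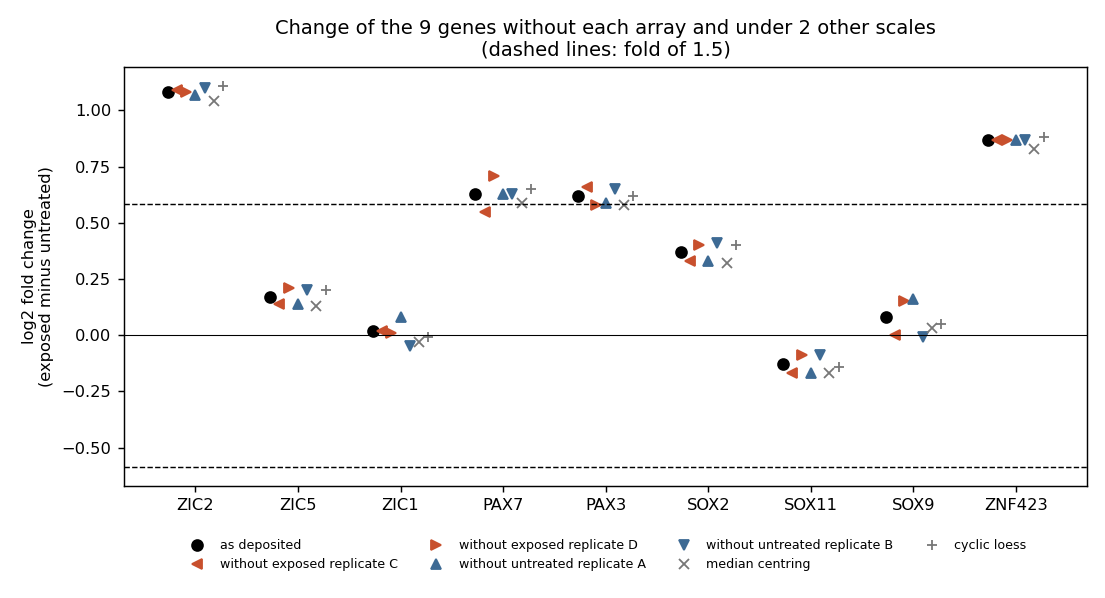
Log2 fold change (y axis, exposed minus untreated) of the 9 genes (x axis) as deposited, with each of the 4 arrays left out and under 2 other scales between arrays; dashed lines mark the fold of 1.5. ZIC2 (1.04 to 1.11) and ZNF423 (0.83 to 0.88) stay clear of the line, while PAX7 (0.55 to 0.71) and PAX3 (0.58 to 0.66) lie across it.

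The SOX genes carry an HMG box, a DNA-bending domain, and showed no common direction. SOX2, of neural progenitors, had log2 signals of 9.45 and 9.38 in exposed cells and 9.01 and 9.08 in untreated cells. The groups were apart by 0.29, with spreads of 0.07 in exposed and 0.08 in untreated cells, and the log2 fold change was 0.37, or 1.29-fold. SOX11 was the only one of the 9 genes with a negative difference as deposited, and with each other scale between arrays that was tried ZIC1 also had one, of -0.03 to -0.01. SOX11 had log2 signals of 7.06 and 6.97 in exposed cells and 7.11 and 7.19 in untreated cells. Its groups were separated by 0.05 only, less than the 0.09 between the exposed arrays, and its log2 fold change was -0.13. SOX9, which directs crest formation and cartilage, had 6.31 and 6.16 in exposed cells and 6.25 and 6.07 in untreated cells. These overlap, with a log2 fold change of 0.08, and the SOX9 signals lie among those of APOA1 and SFTPC, so its transcript was not distinguishable from weak signal.

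The other genes of the 3 families were followed with the same fit, adjusted over all 67539 clusters. Most of them did not pass. Among genes with a named cluster, 1.13% were called higher and 0.967% lower. Of 7 measured ZIC and GLI genes outside the 9, which share a zinc finger domain, 1 was higher and 0 lower, with a median log2 fold change of 0.15. The gene called was GLI3, a mediator of Hedgehog signals, at 7.90 and 7.87 in exposed cells and 7.18 and 7.27 in untreated cells (limma adjusted p = 0.00696, for a log2 fold change of 0.67 with a standard error of 0.05). All exposed values of GLI3 were above the untreated ones. ZIC4, the neighbour of ZIC1, had a log2 fold change of 0.02 at signals below those of APOA1. Of 7 other PAX genes 0 were called by limma (3 had an unadjusted p under 0.05), with a median of 0.11. The share of all clusters with an unadjusted limma p under 0.05 is not given here. Nothing is therefore read from such counts, in this list or in those below. PAX9 and PAX1 had the largest differences, 0.29 (adjusted p = 0.0246, below the fold of 1.5) and 0.18 (adjusted p = 0.152). Of 16 other SOX genes 0 were called (1 with an unadjusted p under 0.05), and their median was 0.00. SOX18 had a log2 fold change of -0.19 and SOX4 of 0.16 (adjusted p = 0.436 and 0.0831), and SOX10, the crest factor of glia and melanocytes, had 0.02. The SOX10 signals lie at about the level of APOA1, so its transcript was not distinguishable from weak signal. Among 12 relatives and partners of ZNF423, 0 were higher and 1, CEP290, was lower. EBF1 had log2 signals of 7.28 and 7.30 in exposed cells and 6.80 and 6.85 in untreated cells. Its log2 fold change was 0.47 (limma adjusted p = 0.0091), below the fold of 1.5. EBF2, EBF3 and EBF4 had -0.06, -0.12 and 0.00. PARP1 had -0.30 (limma adjusted p = 0.0472), also below the fold of 1.5. CEP290, a protein of the base of the cilium that binds ZNF423, had log2 signals of 6.24 and 6.42 in exposed cells and 6.84 and 7.07 in untreated cells (limma adjusted p = 0.0341, for a log2 fold change of -0.62 with a standard error of 0.10). The exposed values of CEP290 lie among those of APOA1 and SFTPC, so its exposed level was not distinguishable from weak signal. The arrays of each group were far apart, and the call of CEP290 was lost when any 1 of the 4 arrays was left out, with log2 fold changes between -0.74 and -0.50, and with cyclic loess.

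**Figure D3:**
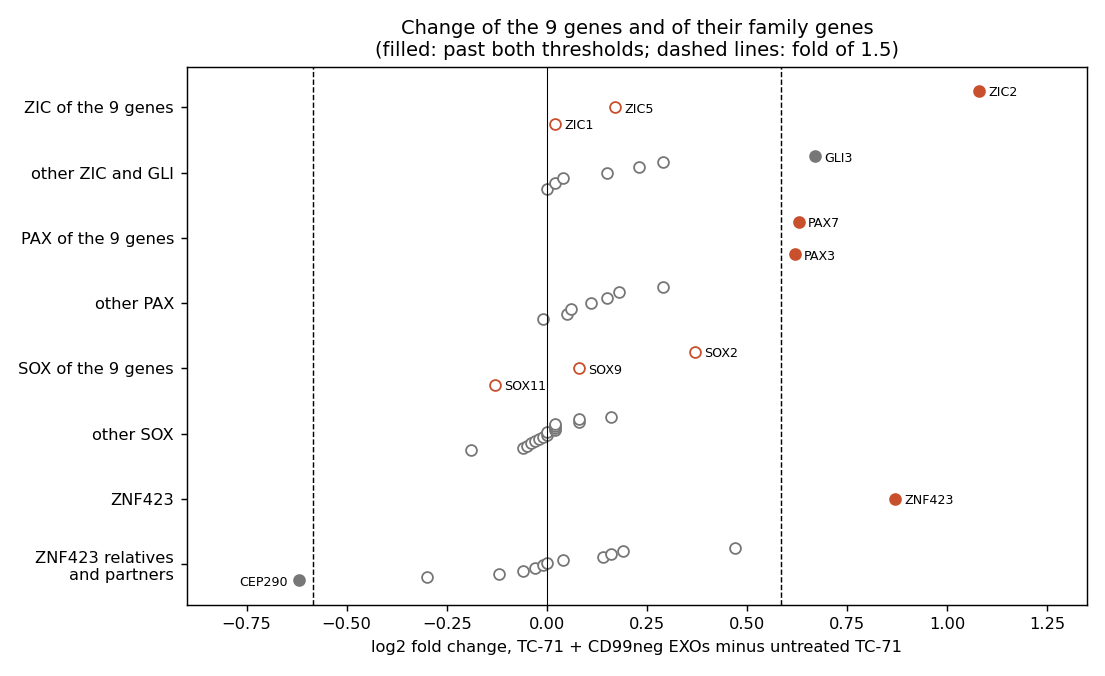
Log2 fold change (x axis, exposed minus untreated) of the 9 genes (red) and of the other genes of their families or partners (grey), 1 point per gene, filled where both thresholds were met; dashed lines mark the fold of 1.5. ZIC2 (1.08) and ZNF423 (0.87) lie right of all genes of their lists, GLI3 (0.67) is the filled grey point at the right and CEP290 (-0.62) the one at the left.

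Of the genes upstream of the 9 factors and their partners at the neural plate border, 0 were called, but part of them gave weak signal. On every array, 12 of 17 inducing signals and 14 of 16 border factors lay above the 95th percentile of olfactory receptor clusters. So did 15 of 18 crest specifiers. BMP2, BMP7, DLL1, GREM1 and SHH were above it but below APOA1. Where signal is weak, a small difference does not show that a transcript was level. Of 17 measured inducing signals 0 were called by limma (1 had an unadjusted p under 0.05), and the median was 0.01. JAG1, a NOTCH ligand, had a log2 fold change of 0.30 (adjusted p = 0.0281) and BMP4 of 0.07 (adjusted p = 0.549). Of 16 measured border factors 0 were called (3 with an unadjusted p under 0.05), with a median of 0.02. EYA1, a cofactor of homeobox proteins at the border, had 7.63 and 7.71 in exposed cells and 7.13 and 7.29 in untreated cells, a log2 fold change of 0.46 (adjusted p = 0.0252), whereas MSX1, a homeobox factor induced by BMP, had -0.29 (adjusted p = 0.0493). Neither reached the fold of 1.5. Of 18 measured crest specifiers 0 were called (7 with an unadjusted p under 0.05), and the median was -0.03. ID1, an inhibitor of helix-loop-helix factors and a BMP target, had a log2 fold change of -0.43 (adjusted p = 0.0123) and TWIST1, a factor of crest and mesenchyme, of -0.29 (adjusted p = 0.0577). FOXD3 and SNAI2, which define early crest, had -0.01 and 0.03.

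Of 17 measured surface and migration genes of the crest, 2 were higher and 0 lower, with a median of 0.01. Among genes with a named cluster, 1.13% were called higher and 0.967% lower. The list was chosen with earlier results of these data known, so nothing is read from its count. RET, the receptor for GDNF in enteric and sympathetic neurons, had log2 signals of 7.07 and 7.12 in exposed cells and 6.50 and 6.41 in untreated cells (limma adjusted p = 0.0078, for a log2 fold change of 0.64 with a standard error of 0.05). KIT, the stem cell factor receptor of melanoblasts, had 7.13 and 7.30 in exposed cells and 6.54 and 6.69 in untreated cells (limma adjusted p = 0.0215, for a log2 fold change of 0.60 with a standard error of 0.08). Groups did not overlap in either gene, but the untreated values of RET lie at the level of APOA1, so its untreated level was not distinguishable from weak signal and the size of its change is uncertain. The call of RET held without each array in turn, while that of KIT was lost without exposed replicate D (0.52), untreated replicate A (0.53) or B (0.68), and with arrays centred on their medians (0.56) or on reference genes (0.58).

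Genes of the cell types that these factors lead to were not called in any list. This covers 9 melanocyte genes (median -0.01), 7 Schwann and glial genes (-0.04), 14 sympathetic and sensory neuron genes (0.01), 12 cartilage genes that SOX9 regulates (-0.01), 12 myogenic genes downstream of PAX3 and PAX7 (-0.01) and 19 neural progenitor and pluripotency genes linked to SOX2 (0.02), each with 0 higher and 0 lower by limma. At an unadjusted p under 0.05 there were 2, 2, 2, 1, 1 and 5 genes in these lists. Part of the genes gave weak signal, where a small difference does not show that a transcript was level. Above the 95th percentile of olfactory receptor clusters on every array lay 6 glial, 10 neuron, 9 cartilage, 7 myogenic and 16 progenitor genes. The melanocyte genes were weak: 1 of the 9, PMEL, lay above the 95th percentile of olfactory receptor clusters on every array, and MITF, their master factor, had 5.27 and 5.25 in exposed cells and 5.32 and 5.31 in untreated cells. KITLG and GPNMB had the largest differences there, 0.19 and -0.16 (adjusted p = 0.0649 and 0.0699). In the glial list these were POU3F1 and EGR2, 0.35 and -0.22 (adjusted p = 0.0817 and 0.0714), and in the neuron list ISL1 and POU4F1, -0.25 and -0.21 (adjusted p = 0.0405 and 0.228). The exposed values of ISL1, 6.36 and 6.42, lie among those of APOA1 and SFTPC. Cartilage genes reached 0.26 in CNMD and -0.07 in MATN3 (adjusted p = 0.0817 and 0.458). MATN3 lay within the range of olfactory receptor clusters, and CNMD within or just above it. The muscle determination factors MYF5 and MYOD1 had log2 fold changes of -0.06 and 0.03, and MET and DES, the most changed myogenic genes, -0.16 and 0.14 (adjusted p = 0.100 and 0.291). MYF5, at 4.68 and 4.67 in exposed and 4.80 and 4.66 in untreated cells, lay within the range of olfactory receptor clusters, as did MET. MYOD1 and DES lay above that range but below APOA1.

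Progenitor genes differed in both directions without reaching the fold of 1.5. MSI1, an RNA-binding protein of neural stem cells, had 7.41 and 7.37 in exposed cells and 8.0 and 7.95 in untreated cells, a log2 fold change of -0.58 (adjusted p = 0.00655) just short of the threshold. NANOG, a pluripotency factor with near-identical pseudogene copies, had 6.27 and 6.36 in exposed cells and 5.81 and 5.74 in untreated cells, a log2 fold change of 0.54 (adjusted p = 0.0109), and its signals were all below those of APOA1. MSI1 passed both thresholds as lower without exposed replicate C or untreated replicate B and with either centring, and NANOG passed as higher without exposed replicate C. Among EWS markers, STEAP1, a membrane reductase, and BCL11B, a zinc finger factor, had -0.56 and 0.42 (adjusted p = 0.0141 and 0.0129) and 0 of the 12 were called (7 with an unadjusted p under 0.05). STEAP1 passed as lower with either centring and without untreated replicate A. HBB and CD3E, of blood cells, had the largest differences among markers of other cell types, 0.06 and -0.06 (adjusted p = 0.526 and 0.595). Of these 12 markers, 0 had an unadjusted p under 0.05.

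**Figure D4:**
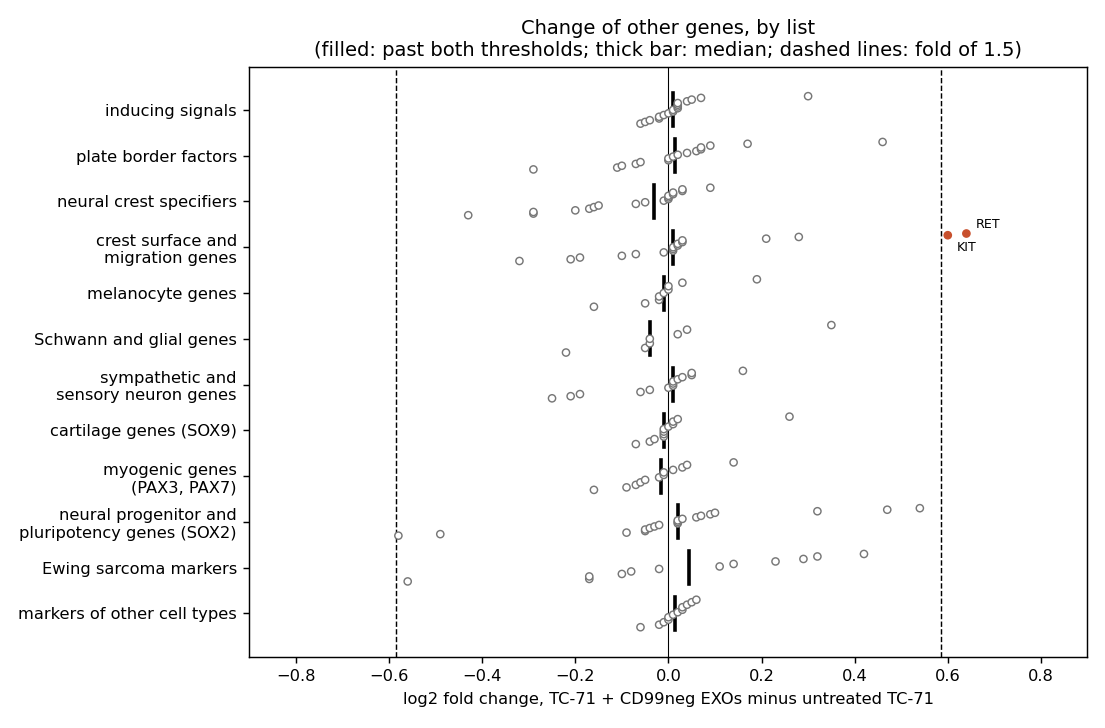
Log2 fold change (x axis, exposed minus untreated) of the genes of each list, 1 point per gene, filled where both thresholds were met, with a thick bar at the median; dashed lines mark the fold of 1.5. All medians lie between -0.04 and 0.05, and RET (0.64) and KIT (0.60) are the filled points.

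Position on the chromosome was not used to choose the genes. In the RefSeq gene order, restricted to genes with a named cluster, the genes next to the 9 were 18, of which 2 are ZIC2 and ZIC5 themselves. Of the other 16, 1 was called, as higher, where 1.13% of genes with a named cluster were called higher and 0.967% lower. All of them but EPHA4, PCCA, CNEP1R1 and RNA5SP150 lay below APOA1 on every array. For those weak genes, a small difference does not show that a transcript was level. EPHA4, an ephrin receptor of axon guidance next to PAX3, had 6.91 and 6.98 in exposed cells and 6.17 and 6.20 in untreated cells (limma adjusted p = 0.00542, for a log2 fold change of 0.76 with a standard error of 0.04). The untreated values of EPHA4 lie among those of SFTPC, so its untreated level was not distinguishable from weak signal, and the size of its change is uncertain. The gene on the other side of PAX3, the noncoding CCDC140, had a log2 fold change of -0.03. PCCA and CLYBL, enzyme genes on either side of the ZIC2 and ZIC5 pair, had 0.02 and -0.13 (adjusted p = 0.956 and 0.264). C16orf78 and CNEP1R1 beside ZNF423 had 0.00 and -0.02, and KLHDC7A and TAS1R2 beside PAX7 had 0.05 each. SOX2-OT, the noncoding transcript in which SOX2 lies, had 0.03 at signals of 4.67 and 4.68 in exposed and 4.65 and 4.64 in untreated cells, within the range of olfactory receptor clusters, and RNA5SP150, a 5S pseudogene on the other side of SOX2, had -0.49 (adjusted p = 0.0474). Beside ZIC1, SOX9 and SOX11, the differences lay between -0.05 in AGTR1 and 0.03 in KCNJ2, with ZIC4 at 0.02, LINC00511 at -0.04, DCDC2C at 0.00 and LOC400940 at 0.00.

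The genes whose values were most like those of the 4 risers were found by the distance of their log2 values, each gene centred on its own mean, over the 4 arrays and among 14301 named genes of at least median signal. The arrays are few and the distance follows the group difference, so it is a description only. Nearest to ZIC2 were FZD4, a Frizzled receptor (distance 0.026, log2 fold change 1.07), MSC, which encodes the helix-loop-helix repressor musculin (0.043, 1.13), and LGALS3BP, a secreted glycoprotein (0.056, 1.13). FZD4 had 9.19 and 9.21 in exposed cells and 8.11 and 8.15 in untreated cells. Nearest to ZNF423 were the zinc finger gene ZNF134 (0.015, 0.86), the cytochrome c oxidase subunit COX8A (0.041, 0.89) and the collagen COL5A2 (0.042, 0.87). PAX3 was closest to NIBAN1 (0.017, 0.61), to HES1, a NOTCH-induced repressor of neuronal differentiation (0.026, 0.60), and to RELL1 (0.027, 0.61). PAX7 was closest to the DNA repair scaffold XRCC1 (0.038, 0.60), to UBALD1 (0.045, 0.64) and to FXYD5, which binds the sodium pump (0.063, 0.66). In all 3, as in PAX7, exposed replicate C was higher than replicate D. A distance over these same arrays favours such genes, so nothing is read from this.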

How the data were processed

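RNA of 4 arrays of TC-71 cells was compared, CD99neg EXOs minus untreated. The authors summarized the CEL files with ExonRMA16 in GeneSpring, quantile-normalized the arrays, and deposited log2 values of 67539 transcript clusters, used as deposited. The identifiers of the clusters of the 9 genes begin with JUC, a junction prefix of the array, although the study describes transcript clusters. How much of each gene they cover was not tested. The genome build is not given in the sources used here. Exactly 1 symbol was attached to 23383 clusters, several to 1225 and none to 42931; unnamed clusters entered the tests. Old symbols were updated through RefSeq (2566 rows) for lists. limma 3.58.1 (R 4.3.3; 2 residual and 2.59 prior degrees of freedom) was fitted over all clusters with Benjamini-Hochberg adjustment, and calls needed 1.5-fold and an adjusted p up to 0.05, as in the study. The functions were tested on simulated data. Arrays have no read depth, and their number limits the precision. The p-values rest on the spread between these arrays, which limma pools with that of other clusters.

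The 9 genes and the lists were chosen with earlier results of these data known. Named in full are the 9 genes; of each list the called genes, at most 6, or the 2 of largest change; the genes next to the 9; the 3 nearest in pattern; and CD99. FOXD3, SNAI2, SOX10, ZIC4, MYF5, MYOD1, MITF, PMEL, APOA1 and SFTPC were added after their values were seen. So were EBF1, EBF2, EBF3, EBF4, PARP1, BMP2, BMP7, DLL1, GREM1 and SHH. Of 193 genes in 14 lists, 183 had a named cluster. Alternatives were other scales between arrays, other variance models, a filter on dim clusters, no fold threshold, no moderation, and each array left out (the lone array of a group then assumed to vary like the others).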

Additional observations from a re-analysis of the deposited data

How the results depend on the processing

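Of the 9 genes, 4 were called under each scale between arrays except median centring (3, without PAX3), with trend or robust variance, without dim clusters and with identical clusters counted once, an alternative added after the data were seen. Leaving out any 1 array gave 3: PAX7 was lost without exposed replicate C or untreated replicate A or B, and PAX3 without exposed replicate D. With no fold threshold the count was 5, with SOX2 added. A test without moderation called 0 of the 9 genes, 0 clusters higher, 0 lower and 0 list genes in either direction (10368 clusters had an unadjusted p under 0.05), so all calls need limma's pooling of variance across clusters.

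Over all clusters, 1043 were higher and 703 lower; adjusted p alone gave 3662 and 2888. Leaving out 1 array gave between 425 (without untreated replicate B) and 829 lower clusters. Of the list genes, 3 were higher and 1 lower; adjusted p alone gave 12 and 8. The lower count was 2 under either centring (array medians or reference genes), where MSI1 was added, and 0 with cyclic loess; leaving out 1 array gave 0 or 1. These scales moved the median of all clusters by -0.04 to -0.01. No paired analysis was possible because the groups share no replicate letters.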
